A study of Saccharomyces cerevisiae with 4 samples.

Results

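Nitrogen catabolite repression and ammonium assimilation were described through 32 genes of budding yeast (Saccharomyces cerevisiae), chosen by name for their role: the use of allantoin, urea and GABA (4-aminobutyrate), the permeases for amino acids and ammonium, the GATA transcription factors, and the enzymes of glutamate and glutamine. All 32 were found among the 6720 gene rows of the deposited table, and all 32 passed the filter of a mean of 1 FPKM, which left 6355 gene rows to test. The cells carried the label wild type (WT) with no strain background given, and were cultured in synthetic complete medium at 30 °C, with 2% glucose (NR, non-restricted) or with 0.05% glucose (CR, calorie-restricted). The 4 libraries are biological replicates A and B of each medium. RNA abundance is given as FPKM, the sequenced fragments per kilobase of a gene scaled to the fragments mapped in the library. Neither the nitrogen source nor the cell density at harvest is stated in the labels.

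Yeast represses the genes for poor nitrogen sources while a good source such as glutamine is at hand. In that state Ure2 holds the GATA activators Gln3 and Gat1 in the cytoplasm. When good sources run out, both enter the nucleus and act at GATA sequences before permease and catabolic genes, where the GATA repressors Dal80 and Gzf3 compete with them. Ammonium is built into glutamate by the NADPH-dependent glutamate dehydrogenases Gdh1 and Gdh3 and into glutamine by Gln1. Glt1, the glutamate synthase, turns glutamine and 2-oxoglutarate into glutamate, and the NAD-dependent dehydrogenase Gdh2 runs in the opposite direction and releases ammonium.

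The GATA hexamer stood before most members. The motif GATAAG was searched on both strands, overlapping matches counted, in the 300 bases that run from 400 to 101 before each start codon (genome build R64). It was present before 21 of the 32 members, or 65.6%, against 795 of 5700 promoters, or 13.9%, over all tested coding genes at their R64 position. The members were picked as genes of a GATA-controlled pathway, so this share is a description and no independent finding. Over all genes with a window, the hexamer stood before 15.7% of those higher in CR, 11.6% of those lower and 13.9% of those not called. The 5 windows below are shown because they set the largest rise (GAP1, 3 matches) beside a rise of like size with no match (GDH2), an uncalled gene with 4 matches (MEP2), and 2 further genes that rose with clustered matches (GDH3 and GZF3). Each is printed 5′ to 3′ on the strand of its gene, with GATAAG or its reverse complement in capitals. They lie at chrXI:514663-514962, chrIV:74019-74318, chrXIV:357053-357352, chrI:31167-31466 and chrX:211678-211977 in this order, on the plus strand for GAP1, MEP2 and GDH3 and on the minus strand for GDH2 and GZF3. The MEP2 window also holds part of the row YNL143C.
GAP1: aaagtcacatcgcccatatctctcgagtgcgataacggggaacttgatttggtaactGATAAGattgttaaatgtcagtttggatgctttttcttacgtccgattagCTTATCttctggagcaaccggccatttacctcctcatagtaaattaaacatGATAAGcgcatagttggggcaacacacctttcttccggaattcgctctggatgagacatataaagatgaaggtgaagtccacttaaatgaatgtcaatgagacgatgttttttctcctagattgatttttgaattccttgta
GDH2: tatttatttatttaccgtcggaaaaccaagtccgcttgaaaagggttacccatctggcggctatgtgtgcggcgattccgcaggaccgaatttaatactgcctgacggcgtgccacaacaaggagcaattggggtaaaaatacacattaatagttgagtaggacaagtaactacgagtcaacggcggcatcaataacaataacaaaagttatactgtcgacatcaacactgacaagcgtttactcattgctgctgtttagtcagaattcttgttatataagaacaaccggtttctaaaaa
MEP2: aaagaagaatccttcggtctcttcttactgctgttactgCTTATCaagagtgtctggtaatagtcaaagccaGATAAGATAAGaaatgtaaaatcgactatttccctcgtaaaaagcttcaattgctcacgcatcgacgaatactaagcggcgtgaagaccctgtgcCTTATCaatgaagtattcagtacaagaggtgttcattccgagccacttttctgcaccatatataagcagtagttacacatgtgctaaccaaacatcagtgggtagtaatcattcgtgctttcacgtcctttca
GDH3: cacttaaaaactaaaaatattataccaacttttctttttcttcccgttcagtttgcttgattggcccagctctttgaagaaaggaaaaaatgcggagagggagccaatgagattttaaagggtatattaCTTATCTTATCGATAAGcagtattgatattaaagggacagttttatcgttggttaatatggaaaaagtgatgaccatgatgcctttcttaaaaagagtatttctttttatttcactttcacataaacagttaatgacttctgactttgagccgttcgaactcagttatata
GZF3: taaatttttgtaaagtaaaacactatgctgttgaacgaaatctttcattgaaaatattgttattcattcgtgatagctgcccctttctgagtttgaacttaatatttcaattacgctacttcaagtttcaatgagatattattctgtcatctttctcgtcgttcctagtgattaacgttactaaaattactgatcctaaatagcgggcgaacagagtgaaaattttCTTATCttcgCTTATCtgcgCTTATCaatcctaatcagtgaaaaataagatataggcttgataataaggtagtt

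In CR, 9 of the 32 genes rose and 2 fell. The risers were GAP1, GDH2, NPR1, GZF3, GDH3, DAL82, DAL2, MEP1 and DAL5, and those that fell were ASP1 and GLT1. The share called, 34.4%, lay near that of all genes, 30.9%. By direction the background was 17.7% higher and 13.2% lower. The median log2 fold of the 32 was 0.43, beside 0.06 for all tested genes. Taken for single libraries relative to the mean of NR, it was 0.30 for CR A and 0.42 for CR B. The 2 media did not overlap for 22 members (17 with CR above, 5 with CR below), or 68.8%, against a background of 73.0% over all genes. The 11 called members were all among these 22. Log2(FPKM + 1) was tested two-sided with limma and adjusted by Benjamini-Hochberg over all 6355 rows at 0.05. Log2 folds below are differences of log2(FPKM + 1), so the change of genes with little RNA is understated.

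**Figure D1:**
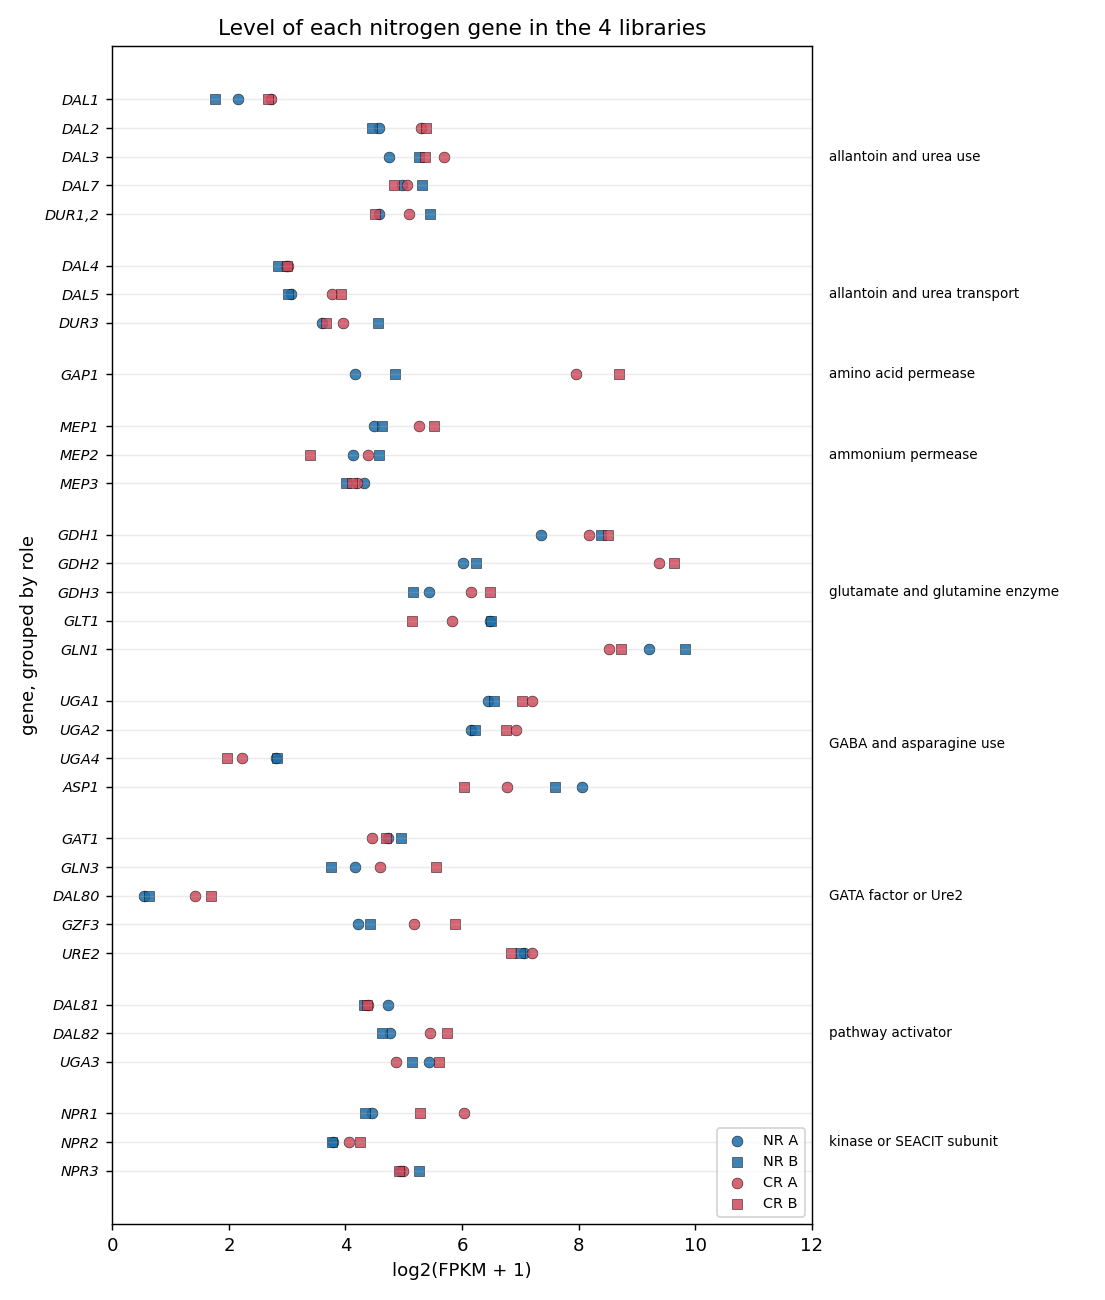
Level of each of the 32 genes on the log2(FPKM + 1) axis, with 1 point per library (blue NR, red CR, circles replicate A, squares replicate B) and genes grouped by role. GAP1 and GDH2 show the widest gap between colours, while URE2, DAL4 and MEP3 have the 4 points close together.

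CR B stood apart from the other libraries in rows outside the genes, and calls without it are given below. Rows that carry a genome position but no gene ID held 87.2% of the summed FPKM of CR B and 27.4% to 34.0% of that of the other libraries, whereas the median FPKM of gene rows ran from 48.6 to 57.6. With every library brought to one median, the median log2 fold over all genes was -0.06 in place of 0.06. All 11 member calls were kept without CR B, and all 11 without CR A. Without NR A or without NR B only GAP1 and GDH2 kept theirs, and the other 9 had adjusted p-values from 0.171 to 0.287 without NR A and from 0.106 to 0.263 without NR B, with the same signs. In the fits without NR A or NR B the spread came from the CR pair alone. The SD of its replicate difference over genes, divided by the square root of 2, was 0.45 (log2), against 0.27 in the NR pair. Without a CR library the spread came from the tighter NR pair alone. Genes pass more readily in such fits, so the calls kept there say little about CR B. The glucose labels held in the data, as the low-affinity glucose transporter gene HXT3 was at 905 and 925 FPKM under NR and 12.1 and 11.5 under CR, and the ethanol-oxidising dehydrogenase gene ADH2 at 21.8 and 18.1 in NR and 3160 and 2126 in CR.

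**Figure D2:**
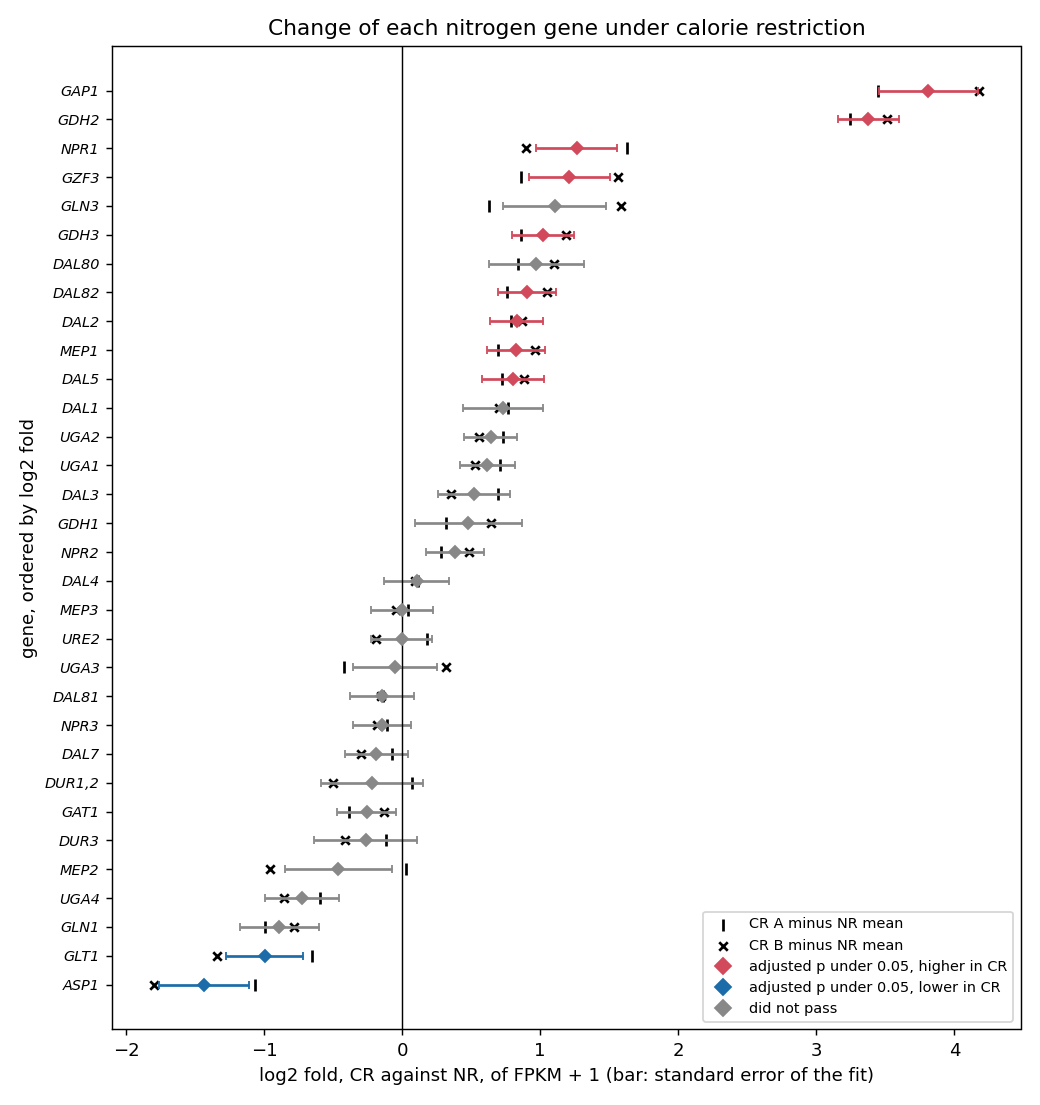
Log2 fold of FPKM + 1, CR against NR, for the 32 genes in order, with the standard error of the fit as bars, the fold of each CR library against the NR mean as black marks, and calls in colour. GAP1 (3.81) and GDH2 (3.38) stand apart from the rest, which lie between -1.43 (ASP1) and 1.26 (NPR1).

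Of the permease genes among the 32, that of the general amino acid permease rose most, while that of the high-affinity ammonium permease did not pass. GAP1 encodes the broad-range amino acid permease of the plasma membrane and is the textbook target of nitrogen catabolite repression (YKR039W, chromosome XI, 515063 to 516871, plus strand, R64 as for all positions here). Its FPKM was 16.9 and 27.8 in the NR pair (A, then B, as below) and 246 and 411 in the CR pair. Both CR libraries stood far above both NR libraries, and the mean rose 14.7-fold (log2 fold 3.81, SE 0.36, adjusted p = 0.0046). Among all tested genes 99.4% had a smaller log2 fold. In the order of the 32 mean FPKM levels GAP1 went from rank 18 in NR to rank 3 in CR. The call held in all 14 alternative fits, with log2 folds from 3.44 to 4.18.

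Of the 3 ammonium permease genes only MEP1 passed, beside 30.9% of all tested genes. MEP1, which encodes a lower-affinity permease (YGR121C, chromosome VII, 731449 to 732927, minus strand), was at 21.5 and 23.8 FPKM under NR and 37.1 and 45.0 under CR, a rise of 1.81-fold (log2 fold 0.83, SE 0.21, adjusted p = 0.038). It lost this call under common-median scaling (adjusted p = 0.063), without the filter on low values (0.069), without NR A (0.287) and without NR B (0.201). MEP2, the high-affinity permease that also acts as an ammonium sensor in filamentous growth, was at 16.6 and 22.9 FPKM under NR and 19.9 and 9.55 under CR. Its CR A value lay between the NR values and its CR B value below them (log2 fold -0.46, SE 0.39, adjusted p = 0.39). The log2 fold of MEP2 was -0.96 without CR A and 0.029 without CR B. MEP3, the third permease, was at 19.0, 15.0, 17.5 and 16.4 FPKM (the NR pair, then the CR pair, A before B), with overlapping groups. The 3 genes were thus at like levels in NR, from 15.0 to 23.8 FPKM. In CR the MEP2 level was 0.535 (A) and 0.212 (B) of the MEP1 level, against 0.769 and 0.962 in NR. The log2 ratio of MEP2 to MEP1 (each FPKM + 1) was -0.21 ± 0.22 in NR and -1.50 ± 0.89 in CR (mean ± SD, n = 2), with an exact two-sided permutation p = 0.33, the smallest that 2 against 2 libraries allow.

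The largest shift within the glutamate enzymes was that of GDH2. GDH2, the NAD-dependent enzyme that breaks glutamate down (YDL215C, chromosome IV, 70640 to 73918, minus strand), was at 63.9 and 74.4 FPKM under NR and at 662 and 796 FPKM under CR. The groups were far apart, and the mean rose 10.5-fold (log2 fold 3.38, SE 0.22, adjusted p = 0.0027), with log2 folds of 3.24 to 3.51 over all 14 alternatives. In NR it was the eighth most abundant of the 32 genes and in CR the first, ahead of GLN1. GDH3, the less abundant NADPH-dependent enzyme (YAL062W, chromosome I, 31567 to 32940, plus strand), rose 2.06-fold, from 42.2 and 34.6 FPKM to 70.1 and 88.1 (log2 fold 1.02, SE 0.23, adjusted p = 0.027). Its call was lost without NR A (0.171), without NR B (0.213) and without the filter on low values (0.058). GDH1, the main NADPH-dependent enzyme, was at 162 and 334 FPKM under NR and 290 and 364 under CR. The CR A value lay between the NR values, and GDH1 did not pass (log2 fold 0.48, adjusted p = 0.38). GDH1 and GDH3 are paralogs, but 99.7% of the 32-base stretches of each were unique in R64.

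Measured within each library, the balance of the 3 dehydrogenase genes turned over. GDH1 made up 60.4% and 75.4% of their summed FPKM under NR (A, then B) and 28.4% and 29.1% under CR. GDH2 made up 23.9% and 16.8% in NR and 64.8% and 63.8% in CR, and GDH3 15.7% and 7.82% in NR and 6.87% and 7.06% in CR. The log2 ratio of GDH2 to GDH1 went from -1.74 ± 0.58 to 1.16 ± 0.04 (mean ± SD, n = 2, exact two-sided permutation p = 0.33, the smallest possible). The ratio of GDH3 to GDH1 had overlapping groups (log2 -1.92 and -3.23 in NR, -2.03 and -2.03 in CR). Over the 8 ratios compared, the Benjamini-Hochberg adjusted permutation p was at lowest 0.533, so none passed.

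**Figure D3:**
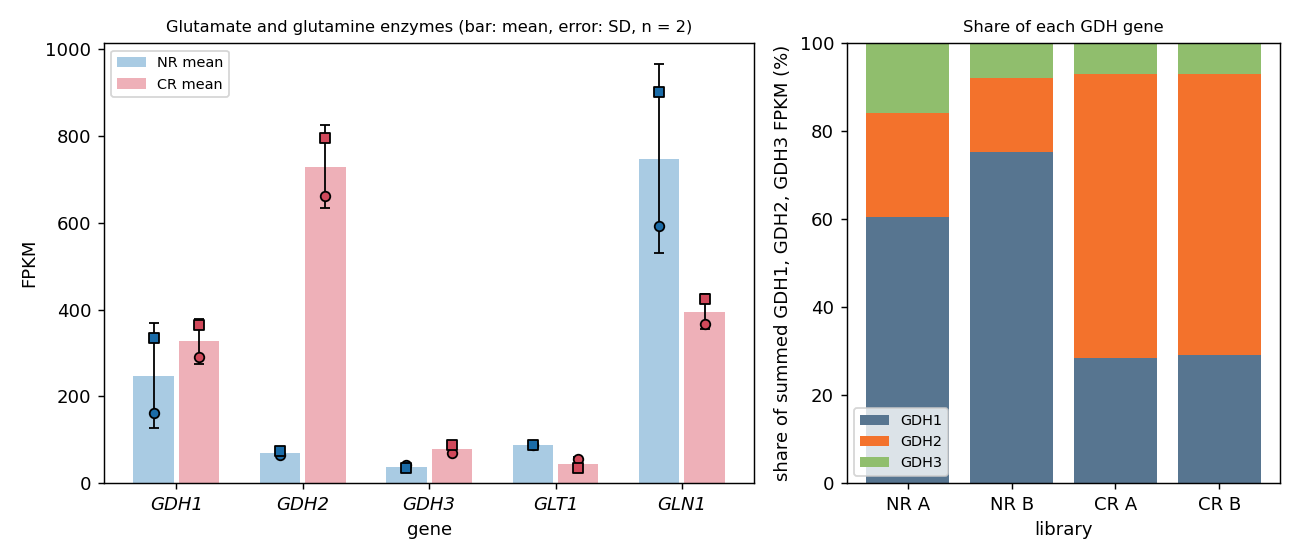
Left, FPKM of the glutamate and glutamine enzyme genes by condition (bar, mean; error bar, SD, n = 2; points, libraries, circles replicate A and squares replicate B). Right, share of GDH1, GDH2 and GDH3 in their summed FPKM per library, in which GDH2 holds 16.8% to 23.9% in NR and 63.8% to 64.8% in CR.

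The enzymes of the glutamine cycle had lower values in CR. GLT1, the glutamate synthase gene (YDL171C, chromosome IV, 149203 to 155640, minus strand), was at 88.2 and 88.8 FPKM under NR and fell to 55.9 and 34.3 under CR (log2 fold -0.997, SE 0.28, adjusted p = 0.048). That call was the nearest to the threshold of the 11 and was lost without the intensity trend (0.054), without the filter on low values (0.096), without NR A (0.247) and without NR B (0.225). GLN1, the glutamine synthetase gene and the most abundant of the 32 in NR, was at 593 and 901 FPKM under NR and at 367 and 424 under CR. Its groups did not overlap, but it did not pass (log2 fold -0.89, SE 0.29, adjusted p = 0.070). The log2 fold of GLN1 was -0.99 without CR B and -0.79 without CR A. Within a library the ratio of GLT1 to GLN1 showed no separation of the groups (log2 -2.74 and -3.33 in NR, -2.69 and -3.59 in CR).

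Among the regulators, the genes of both GATA repressors and of the activator Gln3 had higher means in CR, and 1 of these changes passed. Over all tested genes 30.9% passed, with 17.7% higher and 13.2% lower. GZF3, a GATA repressor gene (YJL110C, chromosome X, 209922 to 211577, minus strand), was at 17.6 and 20.5 FPKM under NR and rose to 35.3 and 57.9 under CR (log2 fold 1.21, SE 0.29, adjusted p = 0.033). It lost the call without NR A (0.219), without NR B (0.148) and without the filter on low values (0.079). GLN3 was at 17.0 and 12.5 FPKM under NR and 23.1 and 45.7 under CR, above both NR libraries in each but with a wide CR spread (log2 fold 1.10, SE 0.37, adjusted p = 0.077). The log2 fold of GLN3 was 1.58 without CR A and 0.63 without CR B. DAL80, the GATA repressor gene that nitrogen catabolite repression itself controls, was the lowest of the 32 genes in both conditions. It was listed at 0.457 and 0.538 FPKM under NR and at 1.68 and 2.22 under CR (YKR034W, chromosome XI, 506898 to 507707, plus strand). Its mean was 3.92-fold higher in CR, while the log2 fold of FPKM + 1 was 0.97 (SE 0.35, adjusted p = 0.086). DAL80 passed without the intensity trend (adjusted p = 0.027) and without the filter on low values (0.026). In the other fits with all 4 libraries DAL80 did not pass. Its adjusted p-values there ran from 0.0763 (pseudocount of 0.1) to 0.172 (replicate letter as a block). Its log2 fold was 1.10 without CR A and 0.84 without CR B. The row of YKR033C overlaps it by 407 nt, and the labels do not say whether strand was used in counting, so reads of the pair cannot be told apart.

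GAT1 and URE2 did not pass. GAT1, the second GATA activator gene, was at 25.4 and 29.9 FPKM under NR and 20.9 and 25.1 under CR (log2 fold -0.26, adjusted p = 0.39), and its row overlaps that of YFL021C-A by 650 nt. The activator pair changed order within the libraries, as the log2 ratio of GAT1 to GLN3 was 0.56 and 1.19 in NR and -0.14 and -0.84 in CR (exact two-sided permutation p = 0.33, the smallest possible). URE2, which encodes the cytoplasmic anchor of both activators, was at 132 and 126 FPKM under NR and 147 and 113 under CR, with overlapping groups and a log2 fold of -0.00 (SE 0.22). Among the GATA factor genes and URE2, URE2 had the highest level in every library.

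Of the pathway-specific activators, DAL82, needed for the response of allantoin genes to allophanate (YNL314W, chromosome XIV, 44447 to 45214, plus strand), rose from 26.2 and 23.6 FPKM to 42.7 and 52.4 (log2 fold 0.90, SE 0.21, adjusted p = 0.031). It lost its call without NR A (0.207), without NR B (0.227) and without the filter on low values (0.062). DAL81, a shared activator of allantoin and GABA genes, was at 25.4, 19.0, 19.9 and 19.7 FPKM (the NR pair, then the CR pair) and did not pass (adjusted p = 0.65). UGA3, the activator of GABA genes, was at 42.1, 34.4, 28.2 and 47.6 FPKM in the same order and did not pass either (adjusted p = 0.90). For both genes the groups overlapped. DAL81 shares 307 nt with the row of YIR023C-A.

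Of NPR1, NPR2 and NPR3, 1 passed, beside 30.9% of all tested genes. NPR1, the kinase that keeps Gap1 and other permeases at the plasma membrane (YNL183C, chromosome XIV, 293137 to 295509, minus strand), was at 20.9 and 19.1 FPKM under NR and rose to 64.1 and 38.0 under CR. Both CR libraries were above both NR libraries, and the log2 fold was 1.26 (SE 0.30, adjusted p = 0.031), with the call lost without NR A (0.180), without NR B (0.171) and without the filter on low values (0.077). NPR2 and NPR3 encode subunits of the SEACIT complex, which inhibits the growth-controlling kinase complex TORC1 when amino acids are scarce. NPR2 was at 12.8 and 12.6 FPKM under NR and 15.6 and 18.1 under CR (log2 fold 0.38, adjusted p = 0.22), and NPR3 at 29.8, 37.3, 30.8 and 29.3 (the NR pair, then the CR pair), with a log2 fold of -0.15 and an adjusted p of 0.62. A list of 15 partners of Npr1, Npr2 and Npr3 held the other SEACIT and SEACAT subunits, the ubiquitin ligase Rsp5 with its adaptors and the phosphatases near Gln3. In limma 0 of these 15 passed, 2 had an unadjusted p under 0.05, and the median log2 fold was 0.22. Over all 6355 rows 30.9% passed, 2877 had an unadjusted p under 0.05, and the median was 0.06. With CR B left out 3 were called higher, and with CR A left out 1 was called higher and 1 lower. SEC13 and PPH21, the most abundant of them by the mean of all 4 libraries, were at 223 ± 17.9 and 196 ± 18.2 FPKM in NR and at 273 ± 81.9 and 292 ± 69.4 in CR (mean ± SD, n = 2).

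The allantoin and urea genes, the best known group under nitrogen catabolite repression, lay at 2.40 to 50.9 FPKM in both conditions. Of the 8 genes 2 rose, a share near the 17.7% higher over all tested genes. Allantoin is broken down in steps by Dal1 (allantoinase), Dal2 (allantoicase) and Dal3 (ureidoglycolate lyase), and the urea formed is degraded by Dur1,2, the urea amidolyase. DAL2 (YIR029W, chromosome IX, 410807 to 411838, plus strand) was at 22.8 and 20.8 FPKM under NR and rose to 38.4 and 40.7 under CR (log2 fold 0.83, SE 0.19, adjusted p = 0.031). The permease gene DAL5, for allantoate and dipeptides (YJR152W, chromosome X, 719666 to 721297, plus strand), rose from 7.41 and 7.08 FPKM to 12.6 and 14.2 (log2 fold 0.80, SE 0.22, adjusted p = 0.048). DAL2 lost its call without NR A (0.219), without NR B (0.239) and without the filter on low values (0.055). DAL5 lost its call without NR A (0.267), without NR B (0.263), under common-median scaling (0.068), with the replicate letter as a block (0.057) and when only rows averaging at least 10 FPKM were tested (0.074).

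The other 6 genes of that group did not pass. DAL1 was at 3.48 and 2.40 FPKM under NR and 5.62 and 5.34 under CR (adjusted p = 0.11), and DAL3 at 26.0 and 37.3 in NR and 50.9 and 40.0 in CR (adjusted p = 0.18). Both had higher CR than NR values in each library. The allantoin permease gene DAL4 was at 6.86, 6.16, 7.13 and 7.00 FPKM (the NR pair, then the CR pair), with a log2 fold of 0.10 (SE 0.24) that was -0.0052 under common-median scaling. For DAL7 (a malate synthase), DUR1,2 and the urea permease gene DUR3 the groups overlapped. DAL7 was at 30.2, 38.8, 32.4 and 27.7 FPKM, DUR1,2 at 23.0, 42.6, 32.9 and 21.8, and DUR3 at 11.1, 22.5, 14.6 and 11.6, in the same order of libraries. In DUR1,2 and DUR3 the highest library was NR B.

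The folds of neighbouring members were not tested against each other. DAL1, DAL4, DAL2, DAL7 and DAL3 lie in a run of 9358 bases on chromosome IX (406260 to 415617), which also holds DCG1 and the row YIR030W-A, the latter overlapping DAL7 by 268 nt. DAL1 and DAL4 are transcribed away from each other, with 825 bases between their start codons. Their log2 folds were 0.73 (SE 0.29) and 0.10 (SE 0.24), and along the run only DAL2 passed. DCG1, also listed as sensitive to nitrogen catabolite repression, was at 8.92 and 9.75 FPKM under NR and 8.84 and 7.91 under CR (log2 fold -0.14, adjusted p = 0.65). Outside the run, the phosphatase gene YVH1 on the DAL1 side fell (log2 fold -2.13, adjusted p = 0.022), and MGA2 on the DAL3 side did not pass (0.75, adjusted p = 0.088). On chromosome IV, GLT1 and UGA3 start 677 bases apart on opposite strands and share 1 GATA hexamer, at 155972 to 155977, in both windows. GLT1 fell and UGA3 had a log2 fold of -0.05 (SE 0.30).

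**Figure D4:**
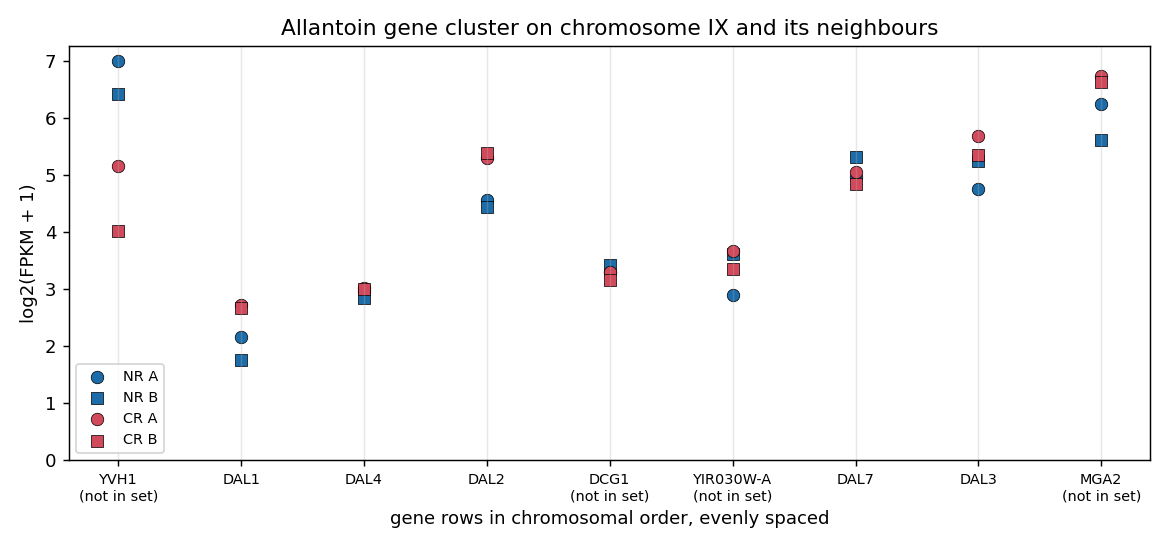
Level as log2(FPKM + 1) of the gene rows of the allantoin cluster and its 2 flanking genes, in chromosomal order and evenly spaced (blue NR, red CR, circles replicate A, squares replicate B). The red points of DAL2 lie above the blue points, those of DAL4 and DCG1 lie close to them, and the flanking gene YVH1 is lower in CR.

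In GABA and asparagine use, the genes of the GABA catabolic enzymes had higher values in CR, and those of the GABA permease and the asparaginase lower values. Of these 4 genes 1 passed (25%), beside 30.9% of all tested genes. The groups were apart in all 4, against 73.0% of all tested genes. ASP1, the cytosolic asparaginase gene (YDR321W, chromosome IV, 1108702 to 1109847, plus strand), was at 267 and 193 FPKM under NR and fell to 108 and 64.4 under CR, 2.67-fold lower in the mean (log2 fold -1.43, SE 0.33, adjusted p = 0.029). It lost the call without NR A (0.205), without NR B (0.106) and without the filter on low values (0.070). UGA1, the GABA transaminase gene, was at 86.6 and 92.6 FPKM under NR and 147 and 129 under CR, and UGA2, the succinate semialdehyde dehydrogenase gene, at 70.5 and 73.7 in NR and 120 and 106 in CR. In both the groups were apart, with log2 folds of 0.62 and 0.64 and adjusted p-values of 0.067 and 0.058. Without CR B their log2 folds were 0.71 and 0.73, and without CR A 0.52 and 0.55. Both were called higher when libraries were scaled to a common sum over gene rows (adjusted p = 0.0365 and 0.0327), a setting added after seeing the data. UGA2 was also called higher over rows that overlap no other gene row (0.0471). Neither UGA1 nor UGA2 passed under common-median scaling (0.112 and 0.0932) or quantile normalization (0.123 and 0.0971). With the replicate letter as a block they did not pass either (0.0873 and 0.0723). UGA4, the GABA permease gene, was at 6.05 and 6.10 FPKM under NR and 3.68 and 2.91 under CR (log2 fold -0.73, adjusted p = 0.095). It was called lower without the filter on low values (adjusted p = 0.0375). The adjusted p of UGA4 was 0.0596 under common-median scaling, 0.197 under quantile normalization and 0.130 with the replicate letter as a block. Its log2 fold was -0.85 without CR A and -0.60 without CR B.

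Set against the GATA hexamer, 8 of the 9 genes that rose had at least 1 match in the window, as did 1 of the 2 that fell and 12 of the 21 that did not pass. Over all genes with a window, a match stood before 15.7% of those higher in CR, 11.6% of those lower and 13.9% of those not called. The 21 members with a match had log2 folds from -0.997 to 3.81 with a median of 0.73. The 11 without a match had log2 folds from -1.43 to 3.38 with a median of -0.00. Members without a match can still hold the shorter core GATAA in the window. UGA4 held it 3 times, GLN1, UGA1 and UGA2 2 times each, and ASP1, GDH1 and NPR3 1 time each. GDH2, DAL81, NPR2 and URE2 did not hold it. Of the 9 members with 3 or 4 matches 4 rose, and their folds ran from -0.46 (MEP2) to 3.81 (GAP1). GDH2, with the second largest rise, had no match in the window printed above, and GAT1 and DAL3, with 4 matches each, did not pass. These counts and medians are descriptions of 32 chosen genes, and a match is not a measured binding site. The difference between members with and without a match was not tested.

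**Figure D5:**
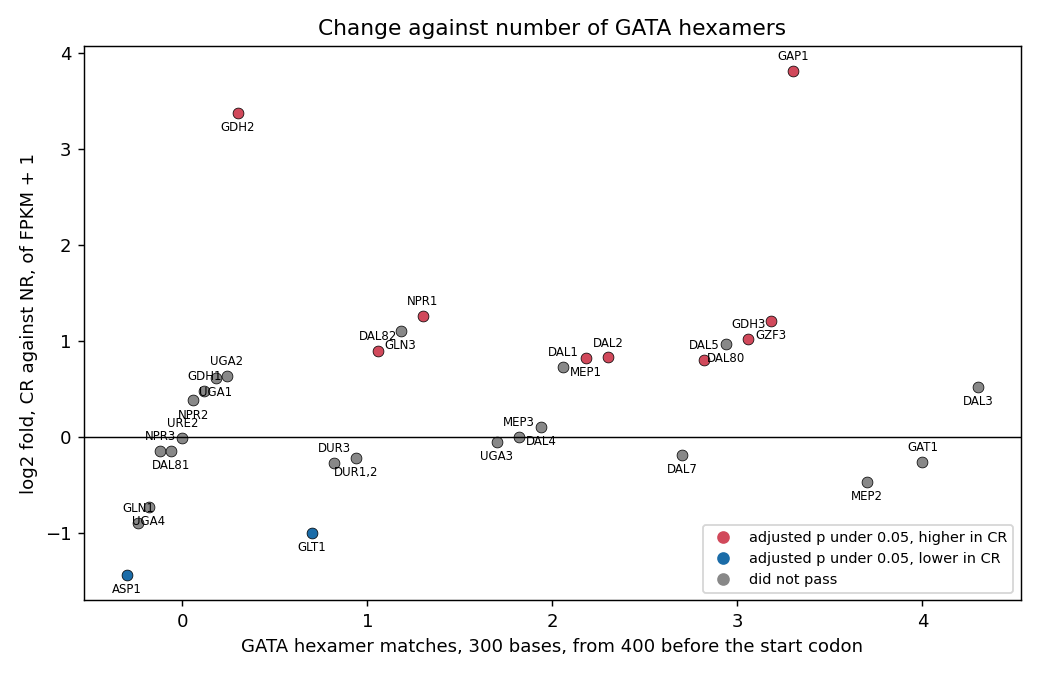
Log2 fold of FPKM + 1, CR against NR, against the number of GATA hexamer matches from 400 to 101 bases before the start codon, with 1 point per gene (points of the same count are spread sideways for legibility) and calls in colour. GAP1, with 3 matches, and GDH2, with none, lie far above the other 30 genes.

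Other genes known to be under nitrogen catabolite repression were described from a list chosen for its function. Like the other lists here, it was written with earlier results of these data known, so its counts are a description and no independent finding. In a list of 24 such genes 20 passed the filter on low values, and 9 of these 20 rose and 0 fell (limma). Over all genes 17.7% were higher and 13.2% lower. Of the 20, 16 had a log2 fold above 0, against 3345 of all 6355 tested rows. The median log2 fold of the 20 was 0.94, beside 0.06 over all genes. The 4 that did not pass the filter were the near-identical asparaginase genes ASP3-1, ASP3-2, ASP3-3 and ASP3-4. PUT4, the proline permease gene, had 12.2 ± 3.11 FPKM under NR and 401 ± 35.3 under CR (mean ± SD, n = 2), a rise seen in both CR libraries (log2 fold 4.94, adjusted p = 0.0014). BAT2, the cytosolic branched-chain aminotransferase gene, rose from 69.2 and 76.4 to 430 and 545 FPKM (log2 fold 2.72, adjusted p = 0.0031). The arginase gene CAR1 rose from 26.0 and 24.2 to 138 and 180 FPKM (log2 fold 2.60, adjusted p = 0.0034), and PTR2, the di- and tripeptide transporter gene, from 18.2 and 13.7 to 69.4 and 112 FPKM (log2 fold 2.41, adjusted p = 0.0082). The GATA hexamer was found before 13 of the 20 tested genes, or 65.0%. The count of 9 became 2 without NR A and 3 without NR B.

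Around glutamate, 8 of 17 genes of a list rose and 1 fell, with a median log2 fold of 0.45. The list held aminotransferases and enzymes supplying 2-oxoglutarate, and also GAD1, ASN1, ASN2 and GFA1. Over all tested genes 17.7% were higher and 13.2% lower, with a median of 0.06. The largest rise was that of the aromatic aminotransferase gene ARO9, from 5.94 and 6.44 to 372 and 483 FPKM (log2 fold 5.89, adjusted p = 0.00075). The ARO9 row overlaps that of YHR137C-A and may hold its reads. IDP2, the cytosolic NADP-dependent isocitrate dehydrogenase gene, rose from 21.8 and 25.6 to 188 and 215 FPKM (log2 fold 3.04, adjusted p = 0.0027). GAD1, which encodes the glutamate decarboxylase that makes GABA, rose from 86.9 and 101 to 406 and 424 FPKM (log2 fold 2.13, adjusted p = 0.0048). CIT2, the peroxisomal citrate synthase gene, rose from 217 and 279 to 1376 and 1554 FPKM (log2 fold 2.57, adjusted p = 0.0048). The gene that fell, BAT1, the mitochondrial branched-chain aminotransferase gene, went from 299 and 285 to 95.5 and 46.9 FPKM and is named after its values were seen. Without NR A 2 of the 17 rose and 0 fell, and without NR B 4 rose and 0 fell.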

How the data were processed

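The authors deposited 1 table of FPKM with 1 column per library for 4 libraries, all matched to samples by name. The submitters' processing notes list Cufflinks 2.0.2, CASAVA 1.8.2, a Bowtie without version, and build sacCer2. Per the labels' protocols, RNA was extracted with a miRNeasy kit, fragmented, and made into libraries with an Illumina small RNA kit. Strand use and multiply matching reads are not described there. Gene positions and sequences came from RefSeq R64, since the file positions of all 32 members, and of 5989 of 6025 gene rows found in R64, equalled R64 once 1 was added to the start.

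Read counts were not used here, and low values formed no even steps, so the depth is unknown and no counting interval is given. The fifth lowest product of FPKM and length in kb among rows over 1000 nt was 0.0242 to 0.0350 across libraries, against 0.370 for the lowest value of DAL80.

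Rows with no gene ID (413 of 7133) were left out. Gene rows averaging at least 1 FPKM were fitted with limma 3.58.1 in R 4.3.3 on log2(FPKM + 1) with an intensity trend and no covariate, adjusted over 6355 rows. The fit was run on simulated data with equal spread in both groups and large changes only, so that run does not bear on the smaller folds here. Levels are printed by library and means ± SD with n = 2. Ratios of 8 gene pairs were compared by an exact permutation test. Alternatives were pseudocounts of 0.1 and 5, 2 other filters, 2 other normalizations, the replicate letter as a block, no trend, each library left out, a 2-fold threshold and rows without overlap. Scaling to a common sum over gene rows was added after seeing the data. The members, lists and tests were chosen with earlier results of these data known. Values by library were given for members past the threshold or apart by 2-fold or more, and, for lists, up to 4 genes past the threshold with the smallest adjusted p, or otherwise the 2 most abundant. The remaining members are given to account for all 32. Python 3.11.15, pandas 2.3.3, NumPy 2.4.6 and matplotlib 3.10.9 were used.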

Additional observations from a re-analysis of the deposited data

Results flagged for a closer look

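Rows without a gene ID, which entered no comparison, held 87.2% of the summed FPKM of CR B against 34.0% and 29.9% in NR A and NR B. This was flagged as a signal outside the gene rows that exceeded the control libraries. The other CR library, CR A, had 27.4%, so the high share belongs to 1 library. With CR B left out, the spread came from the tighter NR pair alone, so calls kept in that fit say little about CR B. The log2 fold of GAP1 was 3.44 without it and 3.81 with it, and that of MEP2 0.029 and -0.46.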

How the results depend on the processing

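Of the 11 calls among the 32 genes, GAP1 and GDH2 passed in all 14 alternatives. Members called higher and lower (9 and 2) became 4 and 1 without the filter on low values, and 5 and 1 with a change of 2-fold or more also required. Without the intensity trend 1 was called lower. Leaving out 1 library gave 2 to 11 higher and 0 to 4 lower, the low ends without NR A and without NR B. Over all gene rows, 464 were called lower without the filter on low values, and leaving out 1 library gave 72 to 1632 higher and 44 to 1656 lower. For the other repressed genes, 1 was called lower without the filter, with a mean of 10 FPKM required, under common-median scaling, under quantile normalization and over rows without overlap, and leaving out 1 library gave 2 to 13 higher and 0 to 2 lower. Of the genes around glutamate, 5 were called higher without the filter, and leaving out 1 library gave 2 to 9 higher and 0 to 3 lower. Of the partners of Npr1, Npr2 and Npr3, 1 was called higher with a mean of 10 FPKM required, over rows without overlap and with the common sum, and leaving out 1 library gave 0 to 3 higher and 0 to 1 lower.

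The sign changed under some alternative for 10 members, none of them called with all 4 libraries. Common-median scaling gave -0.0052 for DAL4 and -0.12 for MEP3, a pseudocount of 5 gave -0.00065 for MEP3, and the common sum over gene rows, chosen after seeing the data, gave 0.12 for URE2 and 0.069 for UGA3. Leaving out 1 library gave log2 folds of -0.65 to 0.22 for DUR1,2, -0.75 to 0.22 for DUR3, -0.96 to 0.029 for MEP2, -0.16 to 0.16 for MEP3, -0.039 to 0.9991 for GDH1, -0.19 to 0.18 for URE2, -0.35 to 0.055 for DAL81, -0.42 to 0.31 for UGA3 and -0.30 to 0.011 for NPR3. The log2 ratio of DAL80 to GZF3 was 0.52 higher in CR with a pseudocount of 0.1, and leaving out 1 library gave ratio differences of -0.12 to 1.20 for GDH3 to GDH1 and -0.56 to 0.34 for GLT1 to GLN1. The cause was not tested.

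With the replicate letter as a block (the replicate block), 10 of the 11 member calls were kept and DAL5 was lost (adjusted p = 0.057). Whether libraries with the same letter belong together is not known from their names. The correlation over genes of the A minus B differences of NR and CR was 0.08, which cannot settle it. With 2 libraries per group the smallest exact permutation p is 0.33, and the p-values rest on the spread that limma shares across genes. Where 1 library was left out, the lone library of its group was assumed to vary like the other pair. The depth is unknown, so DAL80, the lowest of the 32 genes, has no counting error here, and genes that overlap another row may hold its reads.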
